A study of Mus musculus with 12 samples.

Results

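Chemokine genes were taken as every gene of the table whose symbol was Ccl, Cxcl or Xcl followed by a number and at most 1 letter, together with Cx3cl1. This gave 39 of 54146 genes under 38 symbols, since Ccl21b stood for 2 Ensembl identifiers and every other symbol for 1. The RNA came from D2A1, a mammary carcinoma line of the mouse, recovered by sorting from lungs seeded through the tail vein. These cells carried an inducible H2B-GFP and a membrane dye that is lost with division, so that GFP+ cells still holding the dye were collected as dormant and GFP+ cells without it as growing. Hosts were WT mice, named flox controls in the legend of the study's sequencing figure, or Tgfbr2 KO mice. In the KO mice a floxed Tgfbr2 is deleted by Cre under the Lysozyme 2 promoter. This restricts the loss to the host's myeloid lineage and leaves the injected tumor cells intact. The injected line and the route of injection were shared by all groups. With 2 states and 2 hosts there were 4 groups (dormant WT and KO, growing WT and KO) of 3 libraries each. A legend counts the libraries of a group as mice, while the sequencing methods do not say whether aliquots of sorted cells came from separate mice, so that p-values measure the spread between these libraries.

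Chemokines are small secreted proteins that bind G protein-coupled receptors and direct the migration of leukocytes. They are named by the spacing of their first cysteines (CC, CXC, XC and CX3C). In lung, macrophages, epithelium, endothelium and tumor cells are all known sources, and a given receptor usually binds several of them. CXC members with a Glu-Leu-Arg motif before the first cysteine act on neutrophils through CXCR2, Cxcl9, Cxcl10 and Cxcl11 act on activated T and NK cells through CXCR3, and most CC members act on monocytes, macrophages, T cells or eosinophils.

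The values are in TPM, which scale transcript abundance by transcript length and by library total, so that levels could be compared between genes as well as between libraries. The read depth behind them is unknown. All WT libraries were labelled batch 1 and all KO libraries batch 2, and a difference between hosts cannot be told apart from a difference between these batches. Dormant and growing libraries of 1 host shared a batch label. Tgfbr2 lay between 0.14 and 11.5 TPM over the 12 libraries and checks no label, since the deletion was not in the sorted cells.

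The libraries labelled dormant KO stood apart from the other 9 and went against their cell type label, so that dormant KO is used here as the name of a label. The summed level of 7 genes fixed as markers of the D2A1 line was 1509 to 1938 TPM there, against 31110 to 43090 TPM elsewhere. Spp1 made up most of this sum, and the list was not lower as a whole, since Akr1c18, Krt8 and Spp1 were called lower and Epcam and Krt7 higher in dormant KO relative to dormant WT. The 8 alveolar type 2 markers, led by Sftpc, summed to 40070 to 42410 TPM in the libraries labelled dormant KO against 42.1 to 466.4 TPM elsewhere. T and NK markers (10 genes) summed to 323 to 445.1 TPM in the libraries labelled dormant KO, 25.3 to 33.05 TPM in growing KO libraries, 0 to 6.09 TPM in dormant WT libraries and 0.62 to 12.09 TPM in growing WT libraries. B-cell markers (6 genes) summed to 1089 to 1201 TPM, 302.8 to 353 TPM, 1.17 to 62.63 TPM and 26.1 to 40 TPM in the same order. Lymphocyte markers were thus highest in the libraries labelled dormant KO. Endothelial markers (10 genes) summed to 454.1 to 568.7 TPM, 21.5 to 31.07 TPM, 9.14 to 27.56 TPM and 2.3 to 7.35 TPM. The neutrophil list (9 genes in the table, with Camp at 0 in all 12 libraries) summed to 4062 to 4370 TPM in the libraries labelled dormant KO, 326.1 to 914.7 TPM in dormant WT libraries and at most 109.5 TPM in the growing groups. S100a8 and S100a9 made up most of this sum, at 304 to 559 TPM and 22 to 327 TPM in dormant WT libraries. Ltf, Ly6g, Mmp8 and Ngp were also at 0 in all 3 dormant WT libraries. Neutrophil markers were low in growing cells. Macrophage markers (12 genes) divided the libraries by state in both hosts, with 1742 to 2146 TPM in dormant WT libraries and 3577 to 3809 TPM in dormant KO libraries against 49.5 to 85.8 TPM in growing WT libraries and 201.3 to 235.2 TPM in growing KO libraries. The part of these cells in any chemokine difference was not tested. Fewer cells of a type and less RNA per cell cannot be told apart in such pooled cells.

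By group mean, 20 of the 39 chemokine genes were at 1 TPM or more in dormant WT, 30 in dormant KO, 22 in growing WT and 28 in growing KO. Of these, 18 reached this level in all 4 groups and 31 in at least 1. Asking for 1 TPM in every library of the group left 12, 26, 13 and 20 genes. Few chemokine genes were abundant, with 6, 8, 1 and 2 genes at 100 TPM or more.

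The summed level of all 39 genes was 4085 ± 554.8 TPM in dormant WT libraries and 4103 ± 279.3 TPM in dormant KO libraries, against 1986 ± 109.4 TPM in growing WT libraries and 2245 ± 141 TPM in growing KO libraries (SD, n = 3 each). In the 2 dormant groups similar totals were made of different shares of largely the same genes. Cxcl1 made up 41 ± 11.7% of the sum in dormant WT, 3.19 ± 0.487% in dormant KO, 86.9 ± 3.56% in growing WT and 62.1 ± 2.2% in growing KO. The highest chemokine gene was Cxcl1 in 9 libraries and Ccl8 in the 3 dormant KO libraries. Without Cxcl1 the sum was 2428 ± 674.1 TPM in dormant WT libraries and 3972 ± 261 TPM in dormant KO libraries but 261.4 ± 78.6 TPM in growing WT libraries and 848.9 ± 19.4 TPM in growing KO libraries. In the dormant WT libraries Ccl8, Ccl6, Ccl12 and Ccl5 followed Cxcl1, in growing WT Cxcl10 and Ccl25 did, and in growing KO Cxcl13 and Cxcl10 did.

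**Figure D1:**
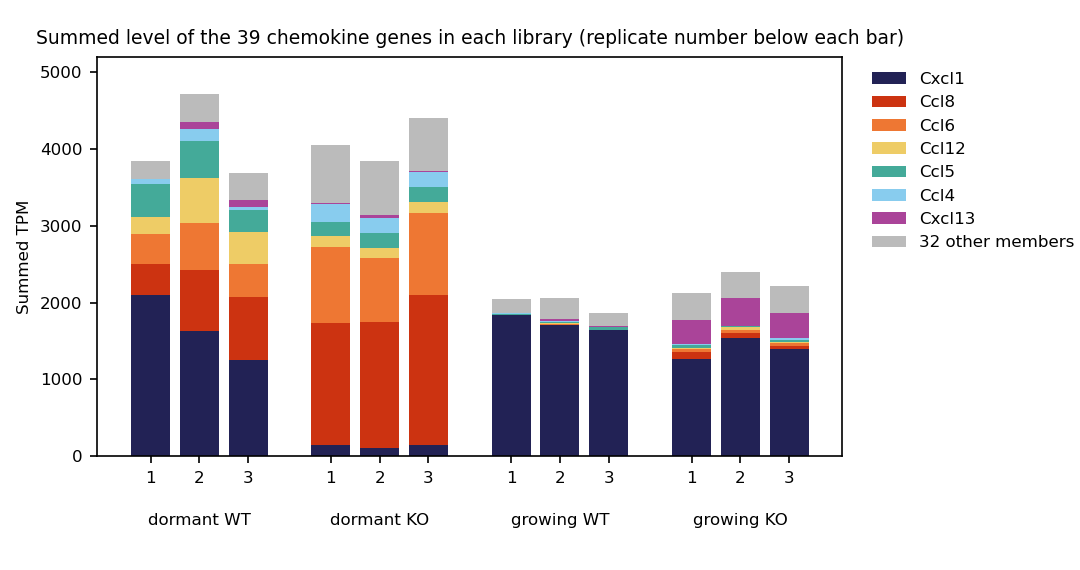
Summed TPM of the 39 chemokine genes in each of the 12 libraries, as stacked bars with the 7 genes named in the key and the 32 others together. Cxcl1 fills most of the bar in growing WT and growing KO, shares it with CC genes in dormant WT, and gives way to Ccl8 and Ccl6 in dormant KO.

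**Figure D2:**
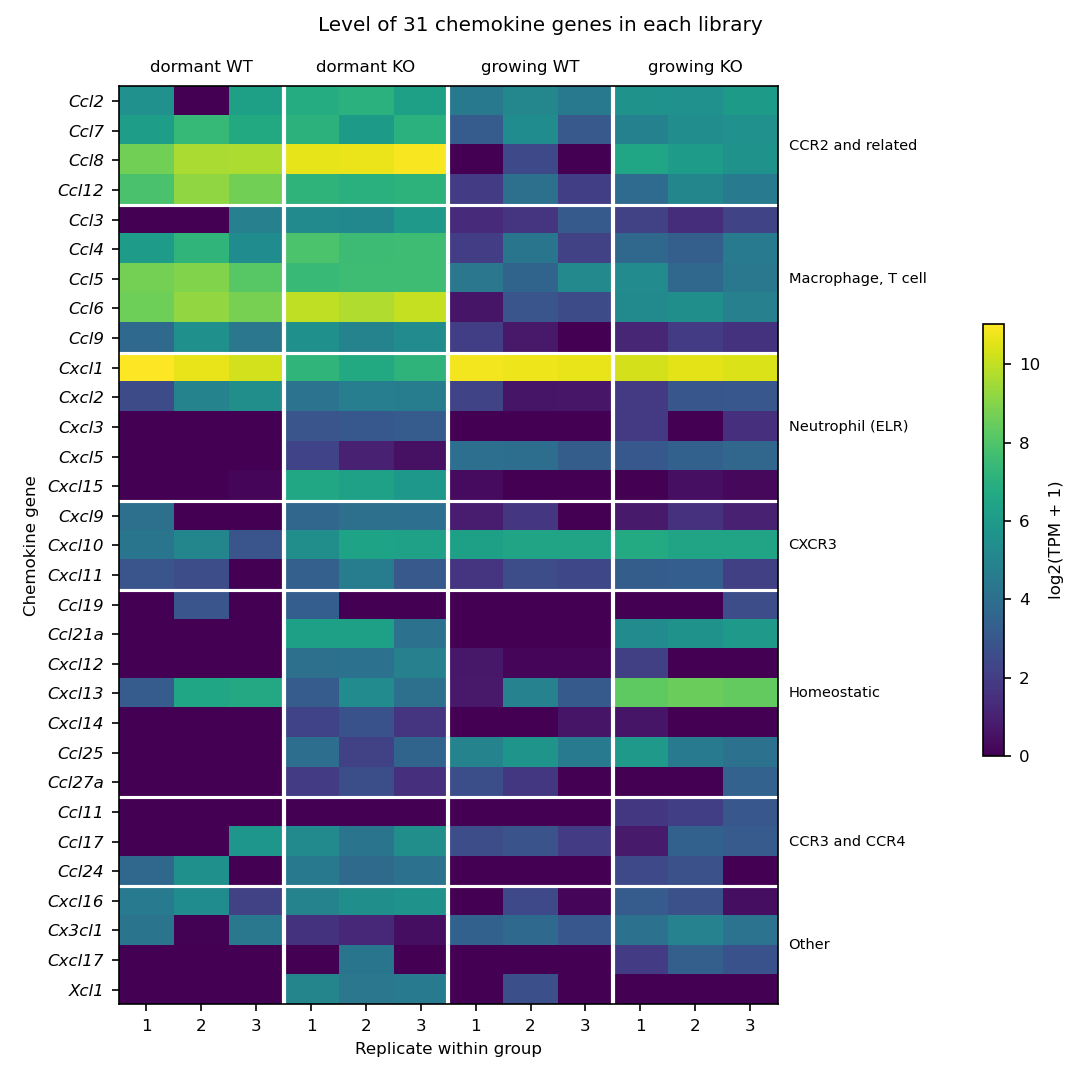
Level of the 31 tested chemokine genes (rows, grouped by the receptor or cell they act on) in the 12 libraries (columns, 3 per group), coloured by log2(TPM + 1). Apart from Ccl2 and Ccl3, which are at 0 in some dormant WT libraries, the CC genes of the upper rows are brighter in both dormant groups. Cxcl1 is dimmer in dormant KO alone, and several lower rows are lit only in KO libraries.

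Differences were tested with limma on log2(TPM + 1) over the 13002 genes with at least 1 TPM in 3 or more libraries, and a gene was called at a Benjamini-Hochberg adjusted p of at most 0.05 and a log2 difference of at least 1. Log2 differences are given as dormant minus growing and as KO minus WT, so that a negative value is a lower level in dormant cells or in KO hosts. Of the chemokine genes, 31 entered this test. Of these, 3 did so through a single group, with a library at 1 TPM or more in growing KO only (Ccl11) or dormant KO only (Cxcl14 and Cxcl15). They are part of the counts below, but their calls are no further support. A group listed at 0 in all 3 libraries was found for 12 of the 31 genes. For these 12 the size of the difference depends on the pseudocount of 1 and no fold is given.

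Between the states in WT hosts, 8 of the 31 genes rose in dormant cells (Ccl4, Ccl5, Ccl6, Ccl7, Ccl8, Ccl9, Ccl12 and Cxcl2) and 3 fell (Ccl25, Cxcl5 and Cxcl10). Over all genes tested, 1.85% were called higher and 5.67% lower in this comparison, so that 24.6% of all calls were higher. That share was 29.1% under median-ratio scaling, with 8 chemokine genes higher and 3 lower. Under quantile normalization it was 50.6%, with 9 higher and 3 lower. The median difference of the chemokine genes was 0 and that of all genes -0.35, and the median was 2.56 over the 19 chemokine genes above 0 in some library of both groups compared. In KO hosts, 13 chemokine genes rose in dormant cells and 5 fell, where 8.31% of all genes were called higher and 9.48% lower. The median difference was 1.94 for the chemokine genes and -0.32 for all genes. Without dormant KO replicate 3 the count of called chemokine genes in KO hosts was 11 in place of 18. In WT hosts the count was 6 in place of 11 when only the groups compared were fitted, without Ccl4, Ccl7, Ccl9, Cxcl2 and Cxcl10, and 7 with array weights. Both state comparisons lay within 1 batch label. Under median-ratio scaling, 16 chemokine genes were higher and 3 lower in KO hosts, and 69.2% of all calls were higher in place of 46.7%. Quantile normalization gave 15 and 5 chemokine genes and 56.9% of all calls.

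Between hosts, 9 chemokine genes were higher and Cxcl1 lower in dormant KO relative to dormant WT, against 12.9% of all genes called higher and 9.39% lower. The count was 6 in place of 10 without dormant KO replicate 2 or 3, where Cxcl14 and Cxcl15 were no longer tested and Ccl3 and Cxcl10 lost their calls, and it was 6 with array weights. The median difference was 1.43 for the chemokine genes, 1.06 for the 21 of them above 0 in both groups compared, and 0.17 for all genes. Median-ratio scaling gave 14 higher and 1 lower, with 74% of all calls higher in place of 57.9%. Quantile normalization gave 10 higher and 2 lower, with 50.1% of all calls higher. Among growing cells 5 chemokine genes were higher in KO hosts (Ccl6, Ccl8, Ccl11, Ccl21a and Cxcl13) and none was lower, in a comparison where 0.715% of all genes were called higher and 0.261% lower, and where limma gave an unadjusted p under 0.05 to 9 chemokine genes in the higher and 0 in the lower direction. Without growing KO replicate 1, 2 or 3 the count of 5 fell to 2, 2 and 3. The median difference was 0.87 for the chemokine genes, 0.5 for the 24 above 0 in both groups compared, and 0.02 for all genes. The difference between hosts in the step from growing to dormant (the interaction) was called for 10 chemokine genes, 5 upward and 5 downward, against 6.18% and 3.91% of all genes. It was called for 6 without dormant KO replicate 1 or 3 and for 3 with array weights, where Ccl8, Ccl11, Ccl12, Ccl25, Cxcl13, Cxcl14 and Xcl1 lost their calls. The counts without a dormant KO library leave out Cxcl14 and Cxcl15, and those without a growing KO library leave out Ccl11, since these genes then fell below the filter. Median-ratio scaling gave 6 upward and 4 downward, with 79.1% of all calls upward in place of 61.2%. Quantile normalization gave 4 upward and 6 downward, with 55.4% of all calls upward. The comparisons share groups, so that the calls of one are not independent of the calls of another.

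Cxcl1, a neutrophil chemokine that binds CXCR2, was the most abundant chemokine transcript in 3 of the groups and fell to a low level in dormant KO. It was at 2093, 1625 and 1255 TPM in dormant WT libraries, 1832, 1706 and 1637 TPM in growing WT libraries and 1265, 1533 and 1391 TPM in growing KO libraries, but at 147, 103 and 144 TPM in dormant KO libraries. No dormant KO library overlapped with any other library. The mean was 12.6-fold lower than that of dormant WT libraries (a log2 difference of -3.63 ± 0.19 (SE) and an adjusted p of 2.95e-07) and 10.6-fold lower than in growing KO (a log2 difference of -3.41 ± 0.19 (SE) and an adjusted p of 7.62e-07). Dormant and growing libraries from WT hosts overlapped, with a log2 difference of -0.09 ± 0.19 (SE) and an adjusted p of 0.836. The step from growing to dormant differed between hosts, with an interaction of -3.33 and an adjusted p of 3.09e-05, and each of these 3 calls was kept without any single library and under every other setting tried.

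The fall of Cxcl1 was set beside Spp1, the osteopontin gene, which was chosen after its values were seen as the highest of the tumor line markers. Spp1 was at 1236, 1509 and 1427 TPM in dormant KO libraries against 39951, 32482 and 33468 TPM in dormant WT libraries. Cxcl1 amounted to 5.24%, 5% and 3.75% of the Spp1 level in the dormant WT libraries, 5.76%, 5.01% and 4.87% in those of growing WT, and 3.88%, 4.82% and 4.8% in those of growing KO. In dormant KO it amounted to 11.9%, 6.8% and 10.1%, above every other library. Relative to Spp1, Cxcl1 was therefore not lower in dormant KO. Relative to Akr1c18, a further marker of the line, Cxcl1 was likewise not lower, with a ratio of 11.5, 8.82 and 6.31 in dormant KO libraries against 0.779 to 1.3 in the other 9. The keratins of the list, which lung epithelium also makes, gave another picture. Relative to Krt18, Cxcl1 stood at a ratio of 0.884, 0.412 and 0.91 in dormant KO libraries against 11.7, 12.4 and 5.43 in dormant WT libraries, at most 7.54 in growing WT libraries and 2.63 to 3.23 in growing KO libraries, with dormant KO below every other library. Relative to Krt8 the ratio was 0.965 to 2.83 in dormant KO libraries and at least 4.13 in every other library. The direction thus differed between Spp1 and Akr1c18 on the one hand and Krt8 and Krt18 on the other, and the part of a lower share of tumor RNA in its lower TPM was not tested.

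Cxcl1 lies at chr5:90891241-90893115 on the plus strand (GRCm38), in a run of neighboring CXC genes with Cxcl5, Cxcl3, Cxcl15 and Cxcl2. The 250 bases before its start site were set beside those of Cxcl2 and Cxcl3, which encode the chemokines nearest to it in function, and of Cxcl10, a further CXC gene with high levels in growing cells. Of 38 member symbols, 27 had RefSeq windows (33 windows, GRCm38.p6), and both strands were searched for 4 motifs. Capitals mark a match to the NF-kappaB consensus, and in Cxcl10 also to GAAANNGAAA, an interferon-stimulated response element, and to TGANTCA, an AP-1 site. Windows run 5′ to 3′ along the strand of the gene.
Cxcl1: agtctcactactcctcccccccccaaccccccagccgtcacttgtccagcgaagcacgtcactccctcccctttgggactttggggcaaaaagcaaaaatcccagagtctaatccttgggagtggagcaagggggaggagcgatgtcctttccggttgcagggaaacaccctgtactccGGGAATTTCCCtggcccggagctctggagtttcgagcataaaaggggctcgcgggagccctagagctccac
Cxcl2: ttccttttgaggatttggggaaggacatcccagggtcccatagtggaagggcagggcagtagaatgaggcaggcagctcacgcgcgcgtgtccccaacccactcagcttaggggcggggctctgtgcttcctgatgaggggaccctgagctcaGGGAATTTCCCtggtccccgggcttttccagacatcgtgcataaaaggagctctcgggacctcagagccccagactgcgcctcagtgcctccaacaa
Cxcl3: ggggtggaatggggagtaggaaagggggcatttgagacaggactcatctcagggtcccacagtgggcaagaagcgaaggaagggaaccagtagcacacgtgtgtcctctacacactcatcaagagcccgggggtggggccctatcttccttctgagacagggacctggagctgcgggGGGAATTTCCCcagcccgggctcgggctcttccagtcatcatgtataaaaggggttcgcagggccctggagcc
Cxcl10: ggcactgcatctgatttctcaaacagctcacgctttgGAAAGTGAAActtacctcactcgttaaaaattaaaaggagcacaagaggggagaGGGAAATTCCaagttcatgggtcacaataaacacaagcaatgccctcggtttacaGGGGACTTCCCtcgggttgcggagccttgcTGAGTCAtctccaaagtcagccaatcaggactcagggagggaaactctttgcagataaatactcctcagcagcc

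These windows are chr5:90890995-90891244 (plus) for Cxcl1, chr5:90903649-90903898 (plus) for Cxcl2, chr5:90785851-90786100 (plus) for Cxcl3 and chr5:92348890-92349139 (minus) for Cxcl10. Cxcl1, Cxcl2 and Cxcl3 held the same 11 bases in capitals, which match the consensus on both strands in overlapping positions. On the plus strand the match ran from 71 to 62 bases before the start in Cxcl1, from 73 to 64 in Cxcl3 and from 97 to 88 in Cxcl2. Despite this shared stretch the levels of the 3 genes differed widely, as the next paragraph shows. The NF-kappaB consensus was found in 7 of 33 chemokine windows (Ccl1, Ccl9, Ccl20, Cxcl1, Cxcl2, Cxcl3 and Cxcl10) and in 7.25% of 32851 windows of all genes. GAAANNGAAA was found in 3 (Ccl19, Cxcl10 and Cxcl14) against 2.98% of all, TGANTCA in 4 against 6.75%, and TTCNNNGAA, a gamma-activated site, in Ccl17 and Cxcl14 against 7.02%. A match describes letters in the window and not a bound site.

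The other neutrophil chemokines were low beside Cxcl1, and of these Cxcl5 alone was called lower, as Cxcl1 was, in dormant KO relative to growing KO. Cxcl2 was at 4.74, 29.8 and 43.2 TPM in dormant WT libraries and 17.7, 25.7 and 24.8 TPM in dormant KO libraries, against 3.85, 0.53 and 0.61 TPM in growing WT libraries and 2.68, 6.67 and 7.03 TPM in growing KO libraries. Every dormant WT library was above every growing WT library, and the rise in dormant WT was called with a log2 difference of 3.12 ± 0.79 (SE) and an adjusted p of 0.0325. The call was lost without dormant WT replicate 2 or 3 or growing WT replicate 2 or 3, where the adjusted p was 0.0628, 0.0656, 0.121 and 0.12. Cxcl3 was listed at 0 in all 6 WT libraries, at 6.55, 7.15 and 8.33 TPM in dormant KO libraries and 2.72, 0 and 1.92 TPM in growing KO libraries, and it was called higher in dormant KO relative to dormant WT (adjusted p = 0.000622) and to growing KO (adjusted p = 0.014). Cxcl5 showed the opposite pattern, with 0 in all 3 dormant WT libraries and 3.63, 1.01 and 0.42 TPM in dormant KO libraries against 15.1, 15.02 and 8.55 TPM in growing WT libraries and 7.1, 9.61 and 11.6 TPM in growing KO libraries. It fell in dormant cells of WT hosts (adjusted p = 0.0019) and of KO hosts, with a log2 difference of -2.12 ± 0.55 (SE) and an adjusted p of 0.0179. In KO hosts the call did not hold without dormant KO replicate 2 or 3 or growing KO replicate 2 or 3 (adjusted p = 0.062, 0.0858, 0.0546 and 0.0639).

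Cxcl15, known as lungkine and made by lung epithelium, was almost confined to the libraries labelled dormant KO. It was at 97.5, 79.03 and 57.95 TPM there and at no more than 0.38 TPM in any of the other 9 libraries. It was called against dormant WT (a log2 difference of 6.22 ± 0.42 (SE) and an adjusted p of 2.07e-06), against growing KO (a log2 difference of 6.04 ± 0.42 (SE) and an adjusted p of 4.42e-06) and in the interaction (adjusted p = 0.000132). Cxcl15 passed the filter, which asked for 3 libraries at 1 TPM, through dormant KO alone. These calls are therefore no further support, and Cxcl15 could not be fitted without a dormant KO library. The alveolar type 2 markers showed the same division of libraries, with 7 of 8 tested genes called higher in dormant KO relative to dormant WT (12.9% of all genes) and to growing KO (8.31% of all genes), and their part in the Cxcl15 difference was not tested. Cxcl15 overlaps a small gene, Gm24322, on the opposite strand, and whether counting used the strand is not given in the sources used here.

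Of the monocyte chemokines, Ccl8 and Ccl12 rose in dormant cells of both hosts. Ccl8, which acts on CCR8 in the mouse, was at 405, 799 and 819.9 TPM in dormant WT libraries and 1587, 1650.0 and 1955 TPM in dormant KO libraries, against 0, 4.36 and 0 TPM in growing WT libraries and 89.3, 65.8 and 49.2 TPM in growing KO libraries. No 2 groups overlapped, and the order was growing WT, growing KO, dormant WT and dormant KO. The dormant mean was 464-fold higher in WT hosts, where 2 of the growing libraries were at 0 (a log2 difference of 8.52 ± 0.58 (SE) and an adjusted p of 6.43e-06), and 25.4-fold higher in KO hosts (a log2 difference of 4.68 ± 0.58 (SE) and an adjusted p of 0.000196). Ccl8 was also 46.9-fold higher in growing KO than in growing WT (a log2 difference of 5.26 ± 0.58 (SE) and an adjusted p of 0.00121), and these 3 calls were kept without any single library. The folds against growing WT rest on growing WT replicate 2 alone, without which no fold can be given, and without replicate 1 or 3 of that group they were 309 and 31.2. Between the dormant groups the mean of dormant KO was 2.57-fold higher, a difference not called (a log2 difference of 1.42 ± 0.58 (SE) and an adjusted p of 0.102). It was called under 4 of the alternatives, with a pseudocount of 5 (adjusted p = 0.0106), under median-ratio scaling (0.0242), with only the groups compared (0.0343) and without growing WT replicate 2, the growing WT library with Ccl8 above 0 (0.0108). The step from growing to dormant was smaller in KO hosts, with an interaction of -3.84 and an adjusted p of 0.0115, a call lost with array weights (0.113).

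Ccl12, a ligand of CCR2 on monocytes, lies next to Ccl8 on chromosome 11. It was at 232, 593 and 406 TPM in dormant WT libraries and 146, 126 and 139.6 TPM in dormant KO libraries, against 2.76, 15.6 and 3.17 TPM in growing WT libraries and 13.5, 32.7 and 23.03 TPM in growing KO libraries. Dormant libraries were above growing libraries without overlap, by 57.1-fold in WT hosts (a log2 difference of 5.91 ± 0.58 (SE) and an adjusted p of 0.000134) and 5.94-fold in KO hosts (a log2 difference of 2.60 ± 0.58 (SE) and an adjusted p of 0.00809). Without growing WT replicate 2 the fold in WT hosts was 138. Unlike Ccl8, Ccl12 had its highest levels in dormant WT, and the interaction of -3.31 was called with an adjusted p of 0.025. That call was lost without any of the dormant KO libraries, growing WT replicate 1 or 3, or growing KO replicate 2 or 3, with adjusted p values of 0.0564 to 0.0661. The lower level in dormant KO than in dormant WT was not called (adjusted p = 0.0911) but was without dormant WT replicate 1 (0.0467) and without growing WT replicate 2 (0.0324).

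Ccl7 and Ccl2, further CCR2 ligands of the same cluster, were less divided by state. Ccl7 was at 69.3, 165 and 104 TPM in dormant WT libraries and 8.17, 40.3 and 7.49 TPM in growing WT libraries. In KO hosts it was at 136, 63.9 and 131 TPM in dormant KO libraries and 27.4, 40.98 and 46.5 TPM in growing KO libraries. Dormant and growing libraries did not overlap in either host. The rise in dormant cells was called in WT hosts (a log2 difference of 2.86 ± 0.61 (SE) and an adjusted p of 0.015) but not without growing WT replicate 1 or 3 (adjusted p = 0.0679 and 0.0681), and it was not called in KO hosts (adjusted p = 0.126), though it was without growing WT replicate 2 (0.048), under median-ratio scaling (0.0442) and with only the groups compared (0.0283). Ccl2, the main monocyte chemoattractant, was at 47.1, 0 and 75.3 TPM in dormant WT libraries, 112, 130.1 and 76.8 TPM in dormant KO libraries, 21.3, 33.8 and 20.98 TPM in growing WT libraries and 48.8, 46.9 and 64.4 TPM in growing KO libraries. The value of 0 in 1 dormant WT library gave that group the widest spread, and Ccl2 was called in none of the 5 comparisons. The log2 difference between dormant KO and dormant WT was 2.76, and it ranged from 0.79 without dormant WT replicate 2, the library at 0, to 3.92 without dormant WT replicate 3, where it was called (adjusted p = 0.0309).

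Of Ccl3, Ccl4, Ccl5, Ccl6 and Ccl9, all CC genes, all but Ccl3 were called higher in dormant cells of both hosts. Ccl6, a mouse CCR1 ligand, was at 391, 609 and 434 TPM in dormant WT libraries and 994, 831 and 1072 TPM in dormant KO libraries, against 0.54, 6.53 and 4.8 TPM in growing WT libraries and 36.98, 44.1 and 26.6 TPM in growing KO libraries. The groups again did not overlap and stood in the same order as for Ccl8. Dormant means were 121-fold higher in WT hosts (a log2 difference of 6.85 ± 0.51 (SE) and an adjusted p of 1.33e-05) and 26.9-fold higher in KO hosts (a log2 difference of 4.73 ± 0.51 (SE) and an adjusted p of 7.86e-05). Growing KO exceeded growing WT by 9.07-fold (a log2 difference of 3.15 ± 0.51 (SE) and an adjusted p of 0.0101), a call lost without growing KO replicate 1 or 2 (adjusted p = 0.0566 and 0.0665). Over single libraries left out, the fold in WT hosts was 84.4 to 179 and that of growing KO over growing WT 6.34 to 13.4. Between the dormant groups the difference was not called (adjusted p = 0.172), but it was without growing WT replicate 1 (0.0257), with a pseudocount of 5 (0.0339), under median-ratio scaling (0.0399) and with only the groups compared (0.0313). The interaction was not called either (adjusted p = 0.0893), and was without growing WT replicate 2 (0.0462).

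Ccl5, which draws T cells and monocytes, was at 420.1, 486 and 285 TPM in dormant WT libraries and 177, 195 and 194 TPM in dormant KO libraries, against 19.9, 10.8 and 35.6 TPM in growing WT libraries and 38.9, 12.3 and 20.1 TPM in growing KO libraries. As for Ccl12, dormant WT was the highest group. The rise in dormant cells was called in WT hosts (a log2 difference of 4.22 ± 0.47 (SE) and an adjusted p of 0.000338) and in KO hosts (a log2 difference of 3.08 ± 0.47 (SE) and an adjusted p of 0.000831), with and without every single library. Ccl4 was at 65.7, 146 and 39.6 TPM in dormant WT libraries and 239, 190.4 and 191 TPM in dormant KO libraries, against 3.04, 18.3 and 3.35 TPM in growing WT libraries and 12.1, 9.05 and 21.7 TPM in growing KO libraries. Here dormant KO was the highest group, and the rise was called in both hosts, with a log2 difference of 3.40 ± 0.65 (SE) and an adjusted p of 0.00941 in WT and a log2 difference of 3.84 ± 0.65 (SE) and an adjusted p of 0.00159 in KO. The call in WT hosts was lost with only the groups compared (0.0817) and with array weights (0.151). Dormant KO was not called above dormant WT (adjusted p = 0.128), but it was without dormant WT replicate 2 (0.0414) and under median-ratio scaling (0.0444).

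Ccl9, a further CCR1 ligand, was at 12.5, 45.8 and 19.6 TPM in dormant WT libraries and 45.2, 29.1 and 39.5 TPM in dormant KO libraries, and at most 3.13 TPM in any growing library. It was called higher in dormant cells of WT hosts (a log2 difference of 3.62 ± 0.65 (SE) and an adjusted p of 0.00669) and of KO hosts (a log2 difference of 3.67 ± 0.65 (SE) and an adjusted p of 0.00202), and these calls were kept without any single library, while that in WT hosts was lost with only the groups compared (0.0703) and with array weights (0.103). Ccl3 was at 0, 0 and 27.4 TPM in dormant WT libraries and 36.6, 34.8 and 60.9 TPM in dormant KO libraries, against 1.48, 2.21 and 7.65 TPM in growing WT libraries and 3.43, 1.7 and 3.78 TPM in growing KO libraries. The dormant WT libraries disagreed, with 2 at 0 and 1 at 27.4 TPM. Dormant KO was called above dormant WT (a log2 difference of 3.84 ± 1.12 (SE) and an adjusted p of 0.0264) and above growing KO (a log2 difference of 3.50 ± 1.12 (SE) and an adjusted p of 0.048). The first call was lost without dormant WT replicate 1 or 2 or any dormant KO library (adjusted p 0.0575 to 0.0879), and the second without any single dormant KO or growing library (0.0591 to 0.141). The interaction was called without dormant WT replicate 3 (adjusted p = 0.00296).

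The macrophage markers moved in the same direction as these CC genes. Of 10 tested, 6 were called higher in dormant than in growing cells of WT hosts and 7 in KO hosts. In these comparisons 1.85% and 8.31% of all genes were called higher. Between hosts, 3 were called higher in growing KO (0.715% of all genes) and 2 in dormant KO (12.9% of all genes). No macrophage marker was called lower by limma in these 4 comparisons, and 0 had an unadjusted p under 0.05 in that direction. In the interaction C1qa, C1qb and C1qc were called downward and 0 markers upward, where 3.91% of all genes were called downward and 6.18% upward. Lyz2, the gene whose promoter drives Cre in the hosts, was at 782.4 to 1407 TPM in dormant WT libraries and 2833 to 2944 TPM in dormant KO libraries, against 26 to 61.4 TPM in growing WT libraries and 90.8 to 135.5 TPM in growing KO libraries. The complement gene C1qa had the reverse order between the dormant groups, at 323, 172 and 161 TPM in dormant WT libraries and 117, 141 and 129 TPM in dormant KO libraries. Marco and Siglecf were at 0 in all 6 growing libraries and low or at 0 in most dormant libraries, so that neither was tested. Marco was at 0.03, 19.7 and 0 TPM in dormant WT libraries and 0.75, 0 and 2.41 TPM in dormant KO libraries. Siglecf was at 0, 4.33 and 0 TPM and at 1.03, 0 and 0.01 TPM in the same order. The part of macrophage RNA in the CC differences was not tested.

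**Figure D3:**
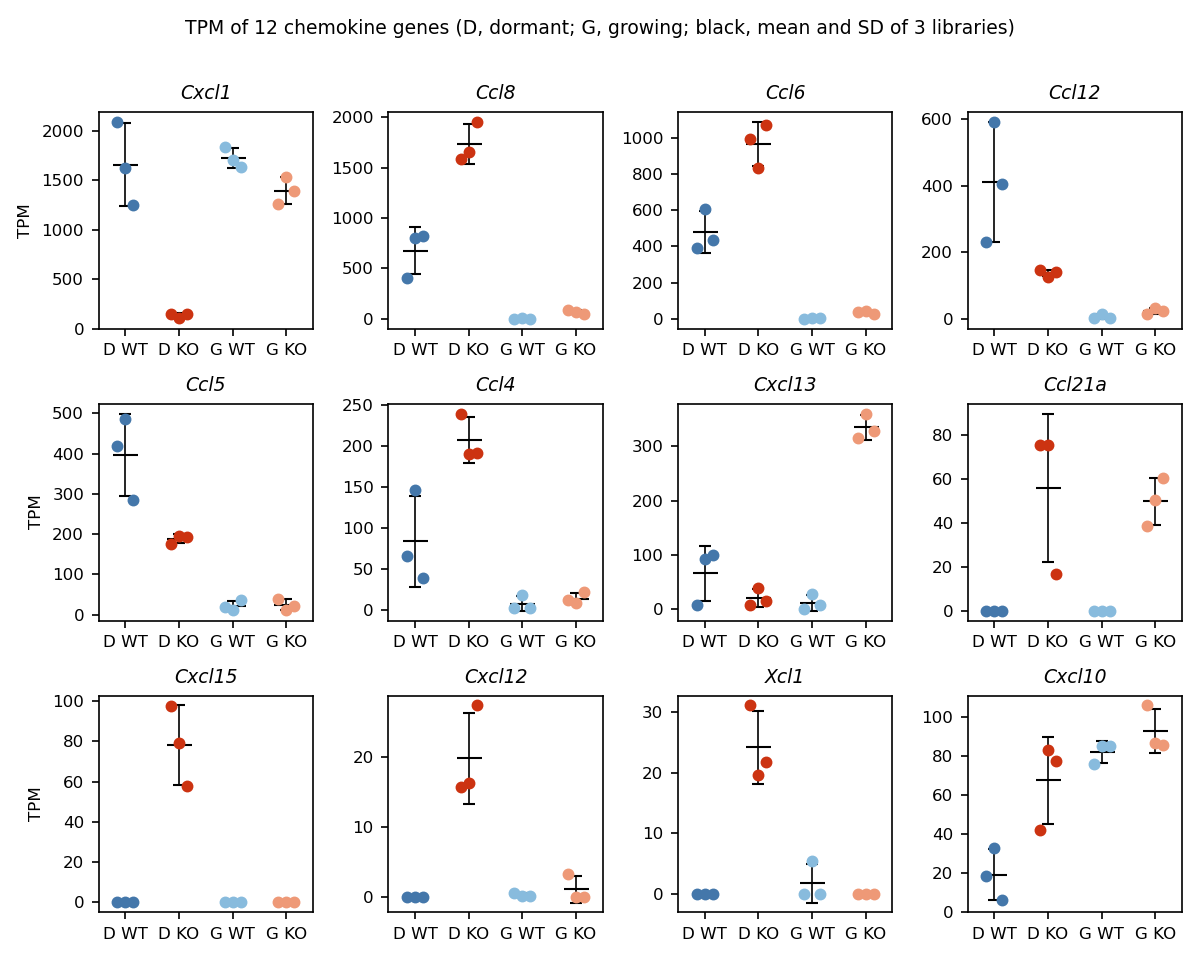
TPM of 12 chemokine genes in the 3 libraries of each group (points), with the mean and SD in black, on linear axes that differ between panels. Ccl8, Ccl6, Ccl12, Ccl5 and Ccl4 are high in both dormant groups, Cxcl1 is low in dormant KO alone, Cxcl13 is high in growing KO alone, and Ccl21a is at 0 in every WT library.

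The CXCR3 ligands, which are induced by interferons, were moderate. Cxcl10 was at 75.9, 85.4 and 85.2 TPM in growing WT libraries and 106, 86.7 and 85.8 TPM in growing KO libraries, against 18.7, 32.8 and 6.48 TPM in dormant WT libraries and 42.3, 83.2 and 77.5 TPM in dormant KO libraries. Dormant WT was the low group and overlapped with none of the others. It was called below growing WT (a log2 difference of -2.28 ± 0.50 (SE) and an adjusted p of 0.0167) and below dormant KO (a log2 difference of 1.95 ± 0.50 (SE) and an adjusted p of 0.0137). The first call was lost without any single growing WT library (adjusted p 0.0556 to 0.0652) and the second without dormant KO replicate 2 or 3 (0.0528 and 0.0533). The interaction was not called (adjusted p = 0.146), but it was without dormant WT replicate 2 (0.0257) and under quantile normalization (0.0393).

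Cxcl9 was at 15.7, 0.02 and 0 TPM in dormant WT libraries and 11.5, 15.9 and 15.1 TPM in dormant KO libraries, and at most 2.33 TPM in growing cells of either host. It was not called in any of the 5 comparisons. Without dormant WT replicate 1, the 1 library of its group with a clear signal, dormant KO was called above dormant WT (log2 difference 3.90, adjusted p = 0.000592), and the interaction was called as well (adjusted p = 0.01). Without any single dormant WT library, dormant KO was also called above growing KO (adjusted p 0.00254 to 0.0457, against 0.0656 with all). Cxcl11 was at 6.53, 5.07 and 0 TPM in dormant WT libraries, 9.46, 24.2 and 7.41 TPM in dormant KO libraries, 2.18, 5.18 and 4.26 TPM in growing WT libraries and 8.54, 8.84 and 3.26 TPM in growing KO libraries, and was not called. Cxcl10 and Cxcl11 overlap Art3 on the opposite strand.

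Cxcl13, which draws B cells through CXCR5, was the second chemokine gene of growing KO cells. It was at 315, 359.8 and 328 TPM in growing KO libraries, against 0.7, 28.4 and 7.66 TPM in growing WT libraries, 8.38, 92.6 and 99.4 TPM in dormant WT libraries and 8.14, 38.6 and 15.8 TPM in dormant KO libraries. Growing KO did not overlap with any other group and varied little, while the other groups varied widely. Its mean was 27.3-fold above growing WT (a log2 difference of 5.47 ± 1.08 (SE) and an adjusted p of 0.0346) and 16.04-fold above dormant KO (a log2 difference of -4.20 ± 1.08 (SE) and an adjusted p of 0.0173). These folds were 80.04 without growing WT replicate 2 and 27.9 without dormant KO replicate 2. The call against growing WT was lost without growing WT replicate 1 or 3, any growing KO library or dormant KO replicate 3 (adjusted p 0.0566 to 0.14), and the call against dormant KO was lost without dormant KO replicate 1 or 3 or any growing KO library (0.0503 to 0.0734). The interaction of -6.75 (adjusted p = 0.0156) was kept without any single library but not with array weights (0.0705). In WT hosts Cxcl13 was called higher in dormant cells without dormant WT replicate 1 and under no other setting (adjusted p = 0.0291).

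Ccl21a, a ligand of CCR7 that guides T cells and dendritic cells, divided the libraries by host. It was listed at 0 in all 6 WT libraries, while it reached 75.2, 75.5 and 16.8 TPM in dormant KO libraries and 38.5, 50.3 and 60.2 TPM in growing KO libraries. It was called higher in KO hosts among dormant cells (adjusted p = 6e-05) and among growing cells (adjusted p = 0.00108), and not between states. Host and batch label cannot be told apart here. Lymphatic endothelium is a known source of Ccl21a. Of its markers, Prox1 was at no more than 0.03 TPM in any library, while Lyve1 was at 14.4, 23.5 and 24.06 TPM in dormant KO libraries, at most 5.48 TPM in growing KO libraries and at most 3.82 TPM in WT libraries, and their part in the Ccl21a difference was not tested. Ccl21a has near-identical copies in the mouse genome, so that reads could be split between them. Ccl21b, under 2 identifiers, was at most 0.27 TPM and was not tested.

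Cxcl12, a stromal chemokine that binds CXCR4, was listed at 0 in all 3 dormant WT libraries, at 15.7, 16.3 and 27.4 TPM in dormant KO libraries, 0.62, 0.13 and 0.15 TPM in growing WT libraries and 3.3, 0 and 0.01 TPM in growing KO libraries. Dormant KO was the only group with a clear level, and it was called above dormant WT (adjusted p = 0.000223), above growing KO (a log2 difference of 3.63 ± 0.57 (SE) and an adjusted p of 0.000982) and in the interaction (adjusted p = 0.00906), with and without every single library. Cxcl14, which is made by epithelium, was at 3.7, 5.79 and 2.27 TPM in dormant KO libraries and at most 0.53 TPM in any other library. It was called in the same 3 comparisons (adjusted p = 0.000883, 0.0021 and 0.017). Cxcl14 passed the filter through dormant KO alone, so that these calls are no further support, and it could not be fitted without a dormant KO library. Xcl1, a product of activated T and NK cells, was at 31.03, 19.7 and 21.7 TPM in dormant KO libraries, 0, 5.53 and 0 TPM in growing WT libraries and 0 in the other 6 libraries. It was called higher in dormant KO relative to dormant WT (adjusted p = 0.000351) and growing KO (adjusted p = 0.000478), and in the interaction (adjusted p = 0.00353). With array weights the call against dormant WT and the interaction were lost for Xcl1 (0.0512 and 0.0537) and for Cxcl14 (0.0527 and 0.0945). Markers of cells known to make these genes were raised in the same libraries, with 7 of 9 tested endothelial, 4 of 8 fibroblast, 5 of 6 alveolar type 1 and 7 of 8 T and NK markers called higher in dormant KO relative to dormant WT, against 12.9% of all genes. Their part in these differences was not tested.

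Ccl25, the ligand of CCR9, went the other way in WT hosts. It was listed at 0 in every dormant WT library, but at 14.8, 3.56 and 10.9 TPM in dormant KO libraries, 29.4, 50.98 and 23.1 TPM in growing WT libraries and 61.2, 21.4 and 16.6 TPM in growing KO libraries. It was called lower in dormant WT than in growing WT (adjusted p = 0.000759) and than in dormant KO (adjusted p = 0.00329). In KO hosts the lower values of dormant cells were not called (adjusted p = 0.112). The interaction of 3.46 was called (adjusted p = 0.0328) but lost without dormant KO replicate 1 or 3, any growing WT library, or growing KO replicate 2 or 3 (adjusted p 0.0569 to 0.0961). Ccl25 overlaps Elavl1 on the opposite strand.

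Among the ligands of CCR3 and CCR4, which act on eosinophils and on type 2 helper and regulatory T cells, Ccl11 was found in growing KO only. Eotaxin-1, its product, is a CCR3 ligand. Ccl11 was at 2.41, 3.08 and 7.01 TPM in growing KO libraries and listed at 0 in the other 9 libraries. It was called against growing WT (adjusted p = 0.00637), against dormant KO (adjusted p = 0.000641) and in the interaction (adjusted p = 0.0105, or 0.0685 with array weights, where that call was lost). Ccl11 passed the filter through growing KO alone, so that these calls are no further support, and it could not be fitted without a growing KO library. Ccl24, another CCR3 ligand, was at 11.99, 44.9 and 0 TPM in dormant WT libraries, 20.9, 13.2 and 16.4 TPM in dormant KO libraries, 0 in all 3 growing WT libraries and 4.47, 5.76 and 0 TPM in growing KO libraries. It was not called with all libraries. Without dormant WT replicate 3, the dormant WT library at 0, dormant cells were called above growing cells in WT hosts (adjusted p = 0.00726) and in KO hosts (adjusted p = 0.042), and in KO hosts also with array weights (0.0369). Ccl17, a CCR4 ligand, was at 0, 0 and 54.2 TPM in dormant WT libraries, 37.1, 17.9 and 42.9 TPM in dormant KO libraries, 5.09, 6.18 and 2.91 TPM in growing WT libraries and 0.74, 9.69 and 7.86 TPM in growing KO libraries. It was not called with all libraries. The dormant WT libraries disagreed, with replicate 3 at 54.2 TPM and the others at 0. Without dormant WT replicate 3 dormant KO was called above dormant WT (log2 difference 4.98, adjusted p = 0.00117) and above growing KO (adjusted p = 0.0256), and the interaction was called (adjusted p = 0.0129).

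Cx3cl1 and Cxcl16 encode the chemokines that are made as membrane proteins and shed from the cell. Cx3cl1, the ligand of CX3CR1, was at 2.02, 1.42 and 0.34 TPM in dormant KO libraries, below all libraries of growing WT (9.61, 12.7 and 7.03 TPM) and growing KO (16.5, 29.1 and 17.6 TPM). In dormant WT it was at 17.9, 0.04 and 20.6 TPM. Dormant KO was called below growing KO (a log2 difference of -3.32 ± 0.99 (SE) and an adjusted p of 0.0356), a call lost without any single library outside dormant WT (adjusted p 0.0524 to 0.121). Without dormant WT replicate 2, which was near 0, dormant KO was also called below dormant WT (log2 difference -3.24, adjusted p = 0.00118), and the interaction was called (adjusted p = 0.00373). Cxcl16, the ligand of CXCR6, was at 21.9, 40.6 and 3.37 TPM in dormant WT libraries, 29.2, 43.4 and 48.9 TPM in dormant KO libraries, 0, 4.35 and 0.14 TPM in growing WT libraries and 8.37, 5.74 and 0.33 TPM in growing KO libraries. Its dormant and growing libraries did not overlap in KO hosts and overlapped in WT hosts. The rise in dormant KO was called (a log2 difference of 3.21 ± 1.001 (SE) and an adjusted p of 0.0439) but not without any dormant KO library, growing WT replicate 1 or 3, or growing KO replicate 2 or 3 (adjusted p 0.0555 to 0.167), while the rise in dormant WT was not called (0.078) but was without dormant WT replicate 3 (0.0208) and under quantile normalization (0.0425).

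Of the 3 tested genes that were neither called nor at a mean of 10 TPM in any group, Ccl19 was above 0 in 3 libraries of 3 groups at 5.05 to 8.77 TPM. Cxcl17 was at 18.4 TPM in 1 dormant KO library and at 2.9 to 9.06 TPM in growing KO libraries, and at 0 elsewhere. Ccl27a, which shares near-identical copies, was at most 10.04 TPM. The 8 genes not tested were Ccl1, Ccl20, Ccl22, Ccl26, Ccl27b, Ccl28 and the 2 entries of Ccl21b. Of these, Ccl22 reached 1.06 TPM in 1 library, Ccl20 reached 0.1 TPM, and 5 were listed at 0 in all 12.

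**Figure D4:**
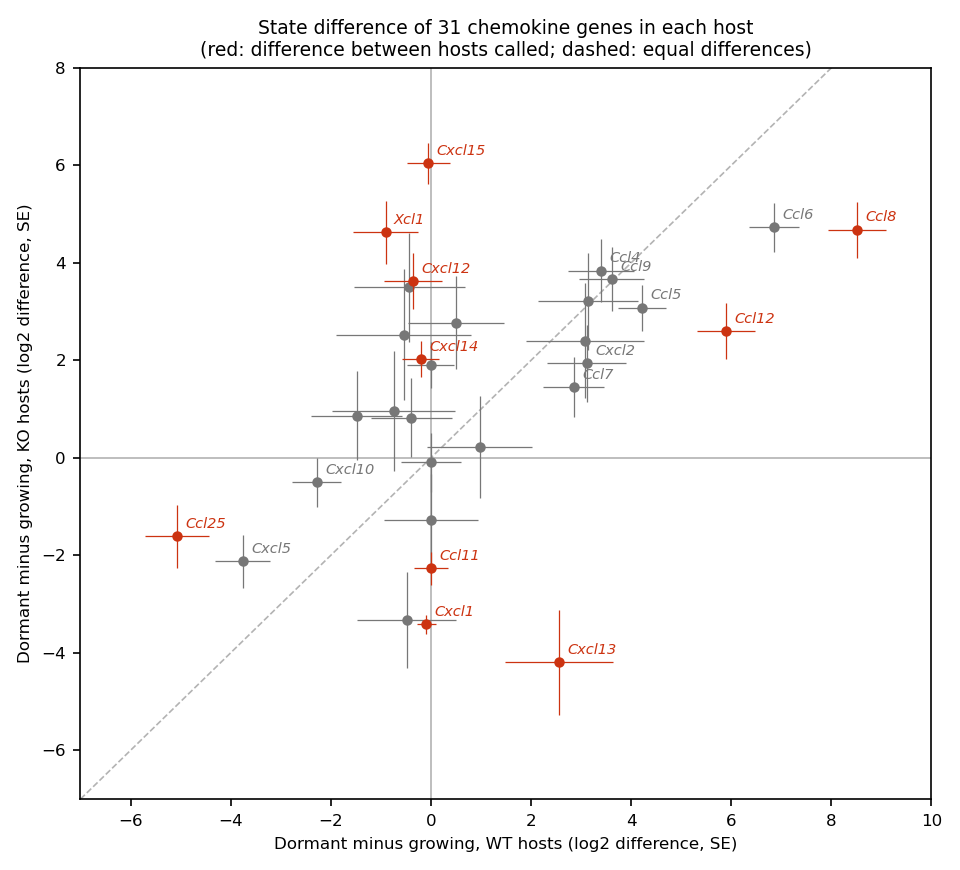
Difference between dormant and growing cells of 31 chemokine genes on the log2(TPM + 1) scale, in WT hosts (horizontal axis) and in KO hosts (vertical axis), with SE bars and with the 10 genes whose interaction was called in red. Ccl6, Ccl8, Ccl9, Ccl4 and Ccl5 are positive in both hosts, Cxcl15, Xcl1 and Cxcl12 are positive in KO hosts alone, and Cxcl1 lies near 0 in WT hosts and at -3.41 in KO hosts.

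Many chemokine genes sit in clusters in the genome. Chromosome 11 held 12 of them and chromosome 5 held 11. Apart from the others lie Cxcl16 on chromosome 11 (from 70453983) and Ccl24 and Ccl26 on chromosome 5 (from 135569937 and 135560448). Neighbors shared a pattern in some places and not in others. In the chromosome 11 cluster Ccl2 (82035571 to 82037453) was not called in any comparison, while Ccl12 (82101845 to 82103400) and Ccl8 (82115185 to 82116799), on the same strand, rose in dormant cells of both hosts. In the chromosome 5 cluster Cxcl5 (90759360 to 90761624) fell in dormant cells of both hosts, Cxcl15 (90794534 to 90803067) rose in KO hosts, and Cxcl1 fell in KO hosts. All these positions are on GRCm38. Ccl2, Ccl6, Cxcl16, Xcl1, Ccl27a and Cxcl17 overlap other annotated genes on the opposite strand (Gm17268, E230016K23Rik, Zmynd15, Gm20743, Il11ra1 and 4732471J01Rik), and Ccl19 and Ccl21a overlap 4930578G10Rik there.

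The receptors of these ligands were sparse. Of 22 receptor genes, 9 were tested. Ccr7, the receptor of Ccl21a, was at 15.1, 17.4 and 19.6 TPM in dormant KO libraries, 10.8, 0.12 and 4.66 TPM in growing KO libraries and 0 in all WT libraries, and with Ccrl2 and Cxcr4 it was called higher in dormant KO relative to dormant WT (adjusted p = 0.00117), in a comparison that called 12.9% of all genes higher. Cxcr3, the receptor of Cxcl9 to Cxcl11, was at 5.13, 19.3 and 8.18 TPM in growing KO libraries, at 0.59 TPM in 1 growing WT library and at 0 in the rest, and passed the filter through growing KO alone, so that its calls there are no further support and it could not be fitted without a growing KO library. Ccr1 was at 9.02, 18.4 and 7.67 TPM in dormant KO libraries, 16.1 TPM in 1 dormant WT library and at most 0.2 TPM in the other 8. Ccrl2 was at 46.8, 73.1 and 55.1 TPM in dormant KO libraries, 43.6 TPM in 1 dormant WT library and at most 4.47 TPM in the other 8. Cxcr6 was at most 0.17 TPM in dormant KO libraries and 30.1, 31.4 and 43.3 TPM in growing KO libraries, with 25.3 to 43.2 TPM in growing WT libraries and 238 TPM in 1 dormant WT library against at most 0.07 TPM in the others of its group. Ccr1 and Ccrl2 were higher and Cxcr6 lower in dormant KO than in growing KO (adjusted p = 0.0158, 0.0307 and 0.0481). Ccr1 lost its call without dormant KO replicate 2 or growing KO replicate 1 or 3 (up to 0.0607), Ccrl2 without any dormant KO library or growing KO replicate 2 or 3 (up to 0.117), and Cxcr6 without any library outside dormant WT (up to 0.126). Ccrl2, called between the dormant groups at an adjusted p of 0.0435, lost that call without any 1 of 11 libraries, all but dormant WT replicate 1 (up to 0.12). Ccr2, the receptor of Ccl2, Ccl7 and Ccl12, was not called in any comparison.

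Ligands outside the naming rule and enzymes that trim chemokines were read in the same way. Pf4 and Ppbp, the platelet CXC chemokines, were at 735, 588 and 570.5 TPM and at 28.2, 13.6 and 23.8 TPM in dormant KO libraries, and Ppbp was at 0.99 TPM or less in every other library and so passed the filter through dormant KO alone. Pf4 was at 169, 0 and 40.9 TPM in dormant WT libraries, and its call (log2 difference 5.03, adjusted p = 0.0351) was lost without dormant WT replicate 2, any dormant KO library or growing KO replicate 3 (up to 0.0945), with a log2 difference of 2.89 without dormant WT replicate 2. Rarres2, which encodes the chemoattractant chemerin, was at 11586, 11964 and 10779 TPM in dormant KO libraries, 208, 229 and 408 TPM in growing KO libraries, 0.13, 75.8 and 0 TPM in dormant WT libraries and 1.52, 3.26 and 2.81 TPM in growing WT libraries. It was called above dormant WT (adjusted p = 6.99e-05) and above growing KO (adjusted p = 0.0105) in dormant KO, and above growing WT in growing KO (adjusted p = 0.0381), the last being lost without any single library outside dormant WT (up to 0.169).

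Of 7 processing and shedding genes, Dpp4, Mmp2 and Mmp12 were called higher in dormant KO relative to dormant WT and Mmp9 lower, where 12.9% of all genes were called higher and 9.39% lower, and the same 4 were called in the same directions against growing KO (8.31% and 9.48% of all genes). Dpp4, whose product cuts the ends of many chemokines, was at 9.18, 36.3 and 7.03 TPM in dormant KO libraries and at most 1.24 TPM in the other libraries. Mmp12, a macrophage elastase, was at 112, 189.7 and 102 TPM in dormant KO libraries and at most 11.8 TPM elsewhere. Mmp2 was at 22.4, 8.17 and 10.3 TPM in dormant KO libraries and at most 3.08 TPM elsewhere. Mmp9 was at 1.26, 7.05 and 0.31 TPM in dormant KO libraries and 20.3, 14.8 and 5.97 TPM in dormant WT libraries, with 8.73 to 10.4 TPM in growing WT libraries and 20.5 to 32.4 TPM in growing KO libraries, and the call between the dormant groups (adjusted p = 0.0365) was lost without any single library except dormant WT replicate 3 and dormant KO replicate 2 (up to 0.144). The 4 genes were called in the interaction too (adjusted p = 0.025, 0.0225, 0.0418 and 0.0336), where 6.18% of all genes were called upward and 3.91% downward, but none of these calls was kept without each single library. Dpp4 lost it without any growing WT library or growing KO replicate 2 (up to 0.0667), Mmp2 without dormant KO replicate 1 or growing KO replicate 1 or 3 (up to 0.0604), Mmp12 without any 1 of 10 libraries, all but dormant WT replicate 2 and growing KO replicate 1 (up to 0.11), and Mmp9 without dormant KO replicate 1 or 3 or any growing library (up to 0.0833). Adam10, which sheds Cx3cl1 and Cxcl16, was at 64.5, 65.6 and 32.8 TPM in dormant WT libraries and 11.4, 18.6 and 14.3 TPM in growing WT libraries. In KO hosts it was at 28.8, 23.9 and 26.3 TPM in dormant libraries and 9.41, 11.96 and 12.5 TPM in growing libraries. Dormant libraries were above growing libraries without overlap in both hosts. The rise was called in WT hosts (adjusted p = 0.0228), but not without any single growing WT library (up to 0.0956), and it was not called in KO hosts.

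Signalling genes known to induce chemokine transcription were counted in the same way. Of 9 genes of interferon gamma signalling, Irf8 alone was called, higher in dormant KO (4.72, 8.48 and 13.9 TPM) than in dormant WT (0 in all 3 libraries, adjusted p = 0.00461), in a comparison that called 12.9% of all genes higher and 9.39% lower. Of 9 genes of NF-kappaB signalling none was called by limma in any of the 5 comparisons, where at most 1 had an unadjusted p under 0.05 in the higher and 2 in the lower direction. With 9 genes a list, the background shares given above would come to few calls as well.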

How the data were processed

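Tumor cells sorted from lung were sequenced as small pooled aliquots. According to the methods and the submitters' processing notes, the authors trimmed reads with Cutadapt, aligned them to mm10 with STAR and estimated expression with RSEM (version 1.3.3 in the submitters' notes). The deposited table holds TPM, so that depth is unknown, intervals from counts could not be given and count models were not used. Of its per-sample columns, 30 matched no sample of these groups and were not used. Library kit and tool versions differ between the labels and the methods.

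The 12 libraries (4 groups of 3) were fitted together by limma 3.58.1 in R 4.3.3 on log2(TPM + 1) as 4 group means, with trended empirical Bayes, over 13002 genes with at least 1 TPM in 3 libraries, and p-values were adjusted over all of them (Benjamini-Hochberg, two-sided). A difference of a log2(TPM + 1) value understates the change of low genes. Called genes had an adjusted p of at most 0.05 and a difference of at least 1. The 5 comparisons were each host within each state, each state within each host, and the interaction. Values in every library are given for members called in any comparison or at a mean of at least 10 TPM in any group, and, for the companion lists, for genes called in any comparison and at 10 TPM or more in some library, with exceptions named. The members and all gene lists were chosen with earlier results of these data known, and 1 gene of the receptor list is not reported here. The fit was tested on simulated data. Positions are from the GENCODE annotation of GRCm38 and promoter sequences from RefSeq (GRCm38.p6), with windows on chromosome 18 left out. Alternatives covered the pseudocount, filter, scaling, thresholds, array weights, a replicate block, only the groups compared, and leaving out each library. For the companion genes they were chosen after seeing the data.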

Additional observations from a re-analysis of the deposited data

Results flagged for a closer look

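The step from growing to dormant cells differed between KO and WT hosts for 10 chemokine genes, by limma's interaction term on the log2(TPM + 1) scale (KO step minus WT step). It was lower in KO hosts for Cxcl1 (-3.33, adjusted p = 3.09e-05), Ccl8 (-3.84, 0.0115), Ccl12 (-3.31, 0.025), Cxcl13 (-6.75, 0.0156) and Ccl11 (-2.27, 0.0105). For Ccl8 and Ccl12 the step was upward in both hosts and smaller in KO hosts, while for Cxcl13 the host difference was 5.47 between the growing groups and -1.29 between the dormant groups. The step was higher in KO hosts for Cxcl15 (6.09, adjusted p = 0.000132), Xcl1 (5.53, 0.00353), Cxcl12 (3.99, 0.00906), Ccl25 (3.46, 0.0328) and Cxcl14 (2.24, 0.017). For Cxcl15, Xcl1, Cxcl12 and Cxcl14 dormant WT was at or near 0 in all 3 libraries, and for Ccl25 it was at 0 while all other groups were not. Cxcl14 and Cxcl15 passed the filter through dormant KO alone and Ccl11 through growing KO alone, so that their calls are no further support. For Ccl11 both dormant groups were at 0, so that its interaction is the difference between the growing groups, and Ccl8 differed more between the growing groups (5.26) than between the dormant groups (1.42). The other interactions include libraries labelled dormant KO that were above 0, in which 7 of 8 alveolar type 2 markers were called higher than in dormant WT (12.9% of all genes), and, of 7 markers of the tumor line, 3 lower (9.39% of all genes) and 2 higher. Host and batch label cannot be told apart.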

How the results depend on the processing

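Of 140 differences (28 named chemokine genes in 5 comparisons), 54 were called, 26 of them under every setting in which they could be fitted and 28 lost in at least 1. Of the 86 not called, 28 were called in at least 1 setting, and no called difference changed sign. The causes of these changes were not tested. Leaving out each library in turn gave 6 to 12 called members between the dormant groups (10 with all libraries), 2 to 6 between the growing groups (5), 8 to 12 between states in WT hosts (11), 11 to 21 in KO hosts (18) and 6 to 12 in the interaction (10). Array weights gave 6 between the dormant groups, 7 between states in WT hosts and 3 in the interaction. Fitting only the groups compared gave 6 between states in WT hosts, and an adjusted p of at most 0.01 left 3 between the growing groups and 4 in the interaction. Asking for 1 TPM in every library, in place of the mean, left 12 of 20 members in dormant WT and 13 of 22 in growing WT. With the replicate block 51 of the 54 calls were kept, and the interaction of Ccl25 (adjusted p = 0.0523), Cx3cl1 in KO hosts (0.0563) and Cxcl2 in WT hosts (0.0554) were not called. Among the companion genes, Rarres2 between states in WT hosts (log2 difference 0.36, not called) moved from -1.70 without dormant WT replicate 2, where it was called lower (adjusted p = 0.0112), to 1.44 without dormant WT replicate 3. The replicate numbers share only a name, since deviations of same-numbered libraries correlated at -0.015 to 0.021 over 18 pairs and 5 of them were highest for the own number. The median difference of all genes between the dormant groups was 0.17 as deposited, 0.5 under median-ratio scaling and -0.14 under quantile normalization.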
